A study of Rattus norvegicus with 9 samples.

Results

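The genes described here are 10 marker genes of fat cells, read in RNA of rat pancreatic islets. They were chosen by name, and a gene counted as measured where the array's annotation gave it a probe set of its own. By that rule 9 of the 10 were measured, among 14217 genes in all: Adipoq, Lep, Cfd, Plin1, Cidec, Cidea, Fabp4, Adrb3 and Aqp7. Retn, the gene of the hormone resistin, had no such probe set and was not analysed here. The question was whether their RNA shows fat tissue carried along with the islets, and whether its level differed with diet.

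The cafeteria diet group held 5 samples of obese Wistar rats that ate a high-caloric choice of palatable foods for 30 days, and the chow group held 4 samples of lean Wistar rats on standard chow. Islets were freed with collagenase and each sample's RNA, as biotin-labelled cRNA, was hybridized to its own Affymetrix rat expression array. Each sample is titled as a rat, the sources used here do not say whether islets of several rats were pooled, and the p-values below therefore measure only the spread between these 9 samples. The labels give no age, sex, feeding state or hybridization batch for any sample.

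Pancreatic islets lie scattered in exocrine tissue, and in rats the pancreas is spread through the fat of the mesentery, so that pieces of fat, lymph node, duct and acinar tissue can come along when islets are picked. A fat cell stores triglyceride in a large droplet coated by perilipin and by CIDE proteins, releases it when noradrenaline acts on beta-adrenergic receptors, and secretes hormones such as leptin and adiponectin. These products are abundant in adipose tissue, and that is why their genes serve as its markers. Some of them are not exclusive to it: Fabp4 is also made by capillary endothelium and macrophages, and Aqp7 by the beta cells of rodents.

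The islet label was borne out by the hormone genes. On the log2 scale of the deposited values Ins1 lay between 13.39 and 13.45 and Ins2 between 14.13 and 14.24 over the 9 arrays, with Gcg (glucagon) between 13.44 and 13.77 and Sst (somatostatin) between 12.32 and 13.26. The medians of the arrays lay between 5.28 and 5.32. These values carry no detection call, so a list of 23 measured genes made in testis, eye, tooth, mammary gland, seminal vesicle or kidney was used to show the values of genes that neither islets nor fat are known for. Its values ran from 3.37 to 5.70, and a value in that range does not show that a gene is silent. The top of the range came from Wap (5.46 to 5.70) and Pde6g (5.14 to 5.42). The next highest gene, Prm2, reached 5.05. These genes were named after their values were seen. Probe sets bind with different strength, so the levels of different genes are not ranked against each other.

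Of the 9 members, 6 had an entry in a RefSeq table of promoters (assembly GRCr8). The promoters of Adipoq, Lep and Plin1 are shown because these 3 genes are among the most closely tied to fat cells. They lay below the array median in every islet sample. The promoters lie at chr11:91240120-91240419 on the minus strand (Adipoq), at chr4:58626288-58626587 on the plus strand (Lep) and at chr1:143086099-143086398 on the minus strand (Plin1), and they read 5′ to 3′ with the matches to the searched motifs in capitals.
Adipoq: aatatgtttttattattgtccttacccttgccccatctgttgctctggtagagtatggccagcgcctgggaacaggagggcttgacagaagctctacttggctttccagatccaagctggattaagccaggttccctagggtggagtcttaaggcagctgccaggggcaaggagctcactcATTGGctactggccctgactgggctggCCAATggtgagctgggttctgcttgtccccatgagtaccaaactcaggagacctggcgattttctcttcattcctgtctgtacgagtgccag
Lep: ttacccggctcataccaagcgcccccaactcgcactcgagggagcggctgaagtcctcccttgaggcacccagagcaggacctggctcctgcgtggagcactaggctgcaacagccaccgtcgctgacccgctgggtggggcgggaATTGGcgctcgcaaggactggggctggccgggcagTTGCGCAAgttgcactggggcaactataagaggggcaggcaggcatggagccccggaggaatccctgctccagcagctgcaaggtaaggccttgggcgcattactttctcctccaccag
Plin1: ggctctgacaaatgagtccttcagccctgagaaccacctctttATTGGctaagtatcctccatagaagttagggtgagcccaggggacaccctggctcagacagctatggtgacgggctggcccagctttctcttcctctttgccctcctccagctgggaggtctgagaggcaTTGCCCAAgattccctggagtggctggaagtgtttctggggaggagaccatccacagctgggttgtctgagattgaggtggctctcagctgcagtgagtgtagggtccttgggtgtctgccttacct
The motifs searched on both strands were the CCAAT box (CCAAT), a palindrome bound by C/EBP factors (TTGCGCAA) and its spaced form (TTGCNNAA, which also takes the palindrome), the TATA box (TATAAA) and the nuclear receptor half-site (AGGTCA). C/EBP factors and PPAR-gamma are the main regulators of fat cell genes. The palindrome was found in the promoter of Lep and in 0.17% of all 33469 promoters of the same length. Its spaced form was found in 3 of the 6 member promoters (Lep, Plin1 and Cidec) and in 10.6% of all promoters. The CCAAT box stood in 4 of the 6 (Adipoq, Lep, Plin1 and Cidea) and in 37.5% of all. The windows reach past the start of the gene, and in Cidea the first base of the match lay at 2 relative to it, not upstream. No match to the other 2 motifs was found in these 6 windows, against 14.2% of all promoters for the TATA box and 16.2% for the half-site. A match is a run of letters and not a measured binding site.

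Of the 9 genes, 8 stayed within the values of the genes of other tissues in every sample, and Fabp4 alone stood above them. Over the 9 arrays the 8 genes other than Fabp4 ran from 3.61 to 5.04, and none of them exceeded its array's median in any sample. Fabp4 lay between 6.89 and 7.85. No difference between the diets passed the test. By limma, 0 of the 9 members reached an adjusted p of 0.05, beside 0 of all 14217 genes (0%). At an unadjusted p under 0.05 there were 0 members, beside 952 of all genes (6.7%). The diet groups failed to overlap in 0 of the 9 members, beside 2.17% of all genes. With shares this small, 0 of 9 does not set the members apart from other genes. The median difference of the members, cafeteria minus chow, was -0.0092, and that of all genes was 0.0025. In bulk tissue, fewer cells of a type and less RNA per cell cannot be told apart.

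**Figure D1:**
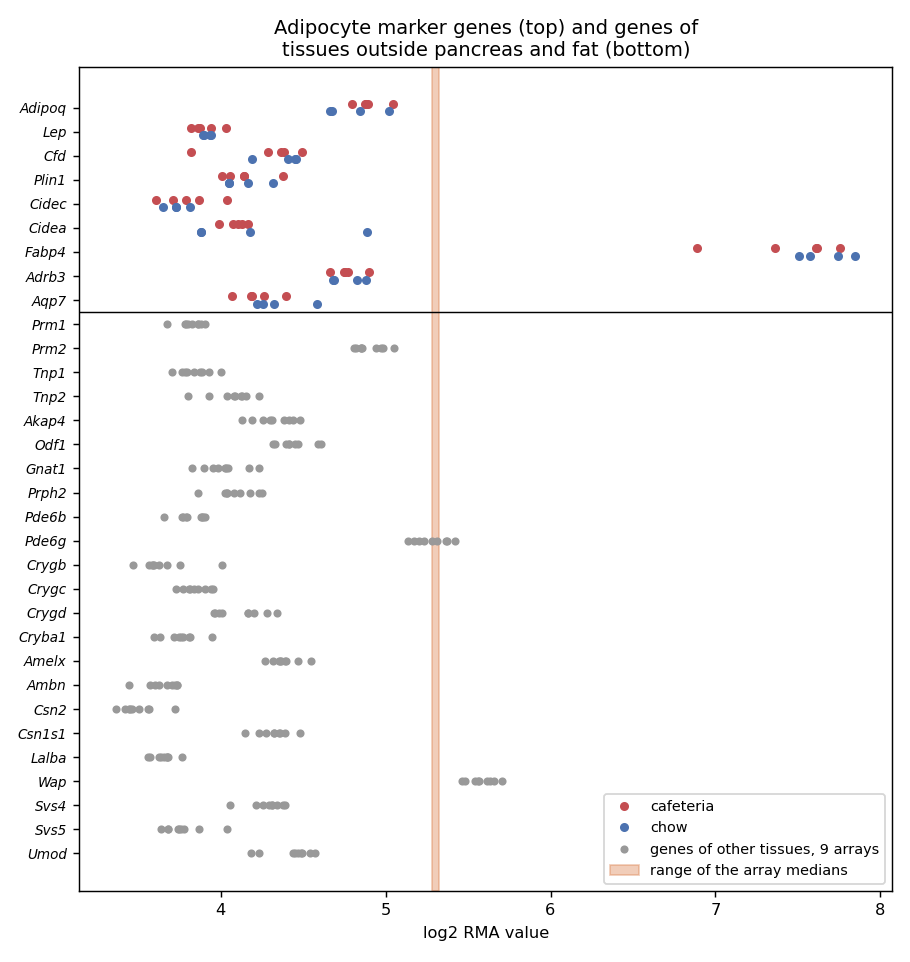
Log2 RMA value of each adipocyte marker gene (top, cafeteria in red and chow in blue, 1 point per sample) and of 23 genes of tissues outside pancreas and fat (bottom, grey, 9 arrays each), with the range of the array medians (5.28 to 5.32) as a band. The members other than Fabp4 lie between 3.61 and 5.04, within the range of the grey points, and Fabp4 lies between 6.89 and 7.85.

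Among the hormones of the fat cell, Adipoq encodes adiponectin, which in fat tissue is among the most abundant messages. It had values of 5.04, 4.89, 4.79, 4.88 and 4.87 in cafeteria islets, against 5.02, 4.67, 4.66 and 4.84 in chow islets. The highest chow sample, replicate 1, lay among the cafeteria samples, and chow replicates 2 and 3 lay below all of them. Adipoq averaged 4.90 ± 0.09 in cafeteria and 4.80 ± 0.17 in chow islets (SD, n = 5 and 4), a difference of 0.10 (SE 0.09, 95% interval -0.10 to 0.30, limma adjusted p = 0.876). It was 0.17 without chow replicate 1, 0.0555 without chow replicate 2, 0.0513 without chow replicate 3 and 0.0610 without cafeteria replicate 1. The interval allows at most a 1.23-fold higher value under the cafeteria diet.

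Lep encodes leptin, whose message in fat rises with obesity. Its values were 3.94, 3.87, 3.86, 3.82 and 4.03 in cafeteria islets, against 3.93, 3.94, 3.89 and 3.90 in chow islets. All 9 samples lay within 0.21 of each other, the smallest spread of the 9 members, and the chow samples fell inside the range of the cafeteria samples. The difference was -0.0092 (SE 0.0658, 95% interval -0.15 to 0.14, limma adjusted p = 0.988).

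Cfd encodes complement factor D, the adipsin secreted by fat cells. Its values were 4.38, 4.37, 4.29, 3.82 and 4.49 in cafeteria islets, against 4.40, 4.45, 4.45 and 4.19 in chow islets. Cafeteria replicate 4 was the lowest, cafeteria replicate 5 was the highest, and the other samples were intermixed. The difference of -0.11 (SE 0.13, limma adjusted p = 0.907) was 0.0074 without cafeteria replicate 4.

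**Figure D2:**
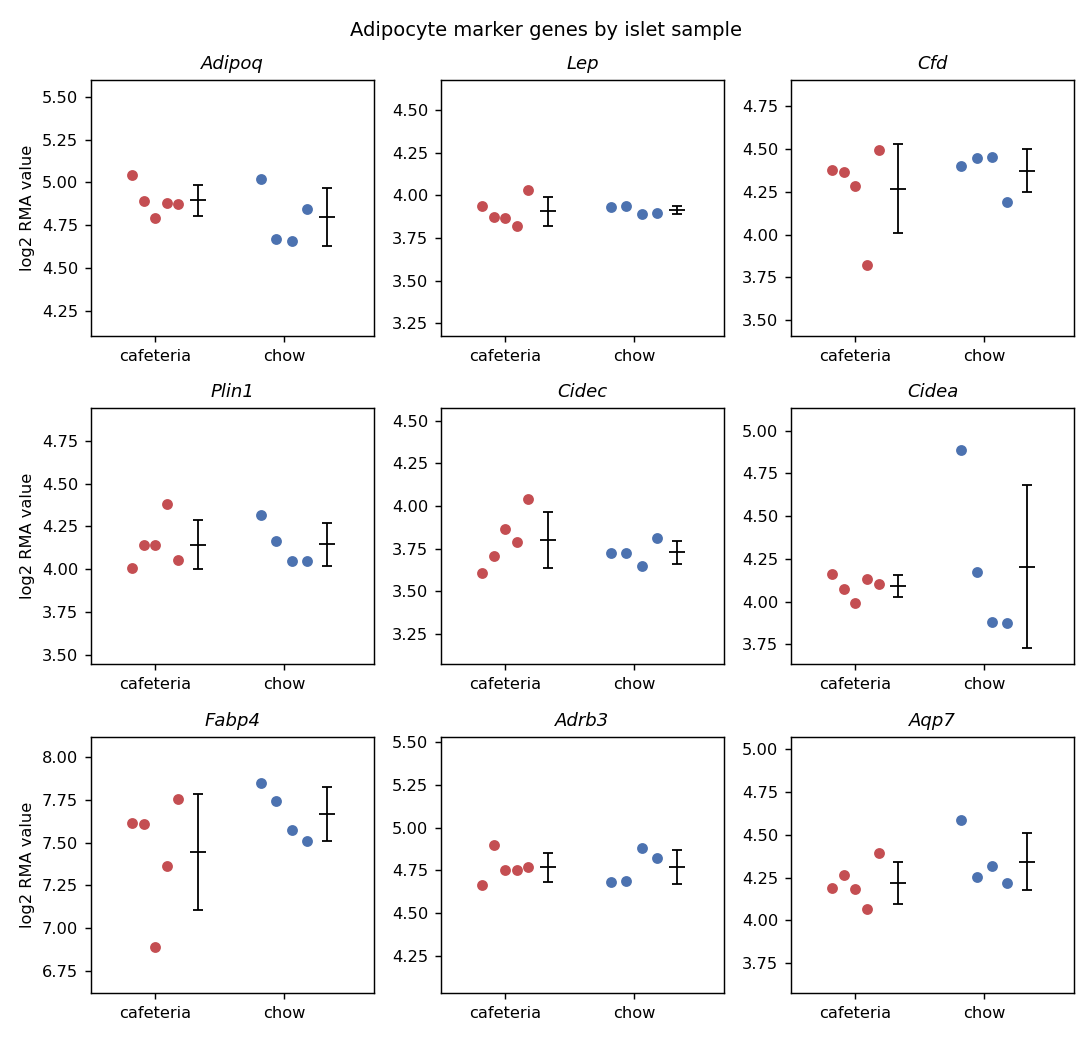
Log2 RMA values of the 9 measured adipocyte marker genes, 1 panel per gene with axes of equal length, 1 point per sample, cafeteria (n = 5) left and chow (n = 4) right, with the mean and SD as bars. The groups overlap in every panel, Cidea has 1 high chow sample (4.89) and Fabp4 has 1 low cafeteria sample (6.89).

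Among the proteins of the lipid droplet, Plin1, perilipin 1, coats the droplet of fat cells and controls access of lipases to it. Its brighter probe set read 4.0, 4.14, 4.14, 4.38 and 4.05 in cafeteria islets, against 4.32, 4.16, 4.05 and 4.05 in chow islets. The groups covered almost the same range, and the difference was -0.0008 (SE 0.0933, limma adjusted p = 0.999). Its other probe set differed by 0.03 (SE 0.08, limma adjusted p = 0.963), with means of 3.94 in cafeteria and 3.91 in chow islets, so no direction is given for this gene.

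Cidec promotes the fusion of droplets into the large droplet of white fat. Its values were 3.61, 3.71, 3.87, 3.79 and 4.04 in cafeteria islets, against 3.73, 3.73, 3.65 and 3.81 in chow islets. Both the lowest and the highest sample belonged to the cafeteria group. The difference was 0.07 (SE 0.09, 95% interval -0.13 to 0.27, limma adjusted p = 0.907), and it was 0.0134 without cafeteria replicate 5 and 0.12 without cafeteria replicate 1.

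Cidea, a relative of Cidec that in rodents marks brown fat, had values of 4.16, 4.07, 3.99, 4.13 and 4.10 in cafeteria islets, against 4.89, 4.17, 3.88 and 3.88 in chow islets. Chow replicate 1 stood 0.71 above the next sample, and the cafeteria samples lay between the other chow samples. The difference was -0.11 (SE 0.18, 95% interval -0.51 to 0.29, limma adjusted p = 0.934), and it turned to 0.12 without chow replicate 1.

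Fabp4, the fatty acid carrier of fat cells, capillary endothelium and macrophages, had values of 7.61, 7.61, 6.89, 7.36 and 7.75 in cafeteria islets, against 7.85, 7.75, 7.57 and 7.51 in chow islets. Cafeteria replicate 3 was the lowest sample, cafeteria replicate 4 was the next, and the other cafeteria samples lay within the range of the chow group. Fabp4 averaged 7.45 ± 0.34 in cafeteria and 7.67 ± 0.16 in chow islets (SD, n = 5 and 4). The difference of -0.22 (SE 0.16, 95% interval -0.58 to 0.13, limma adjusted p = 0.852) was the largest of the 9 members and did not pass the test. It was -0.08 without cafeteria replicate 3.

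At the membrane, Adrb3 encodes the beta3-adrenergic receptor, through which noradrenaline starts lipolysis in rodent fat. Its values were 4.66, 4.90, 4.75, 4.75 and 4.77 in cafeteria islets, against 4.68, 4.69, 4.88 and 4.82 in chow islets. The chow samples all fell within the range of the cafeteria samples, and the difference was -0.0025 (SE 0.0750, limma adjusted p = 0.997). Aqp7, the channel through which fat cells release glycerol, had values of 4.19, 4.26, 4.18, 4.06 and 4.39 in cafeteria islets, against 4.58, 4.25, 4.32 and 4.22 in chow islets. The highest sample was chow replicate 1 and the lowest was cafeteria replicate 4, with the others intermixed. The difference was -0.12 (SE 0.10, 95% interval -0.34 to 0.09, limma adjusted p = 0.859), and it was -0.0446 without chow replicate 1.

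**Figure D3:**
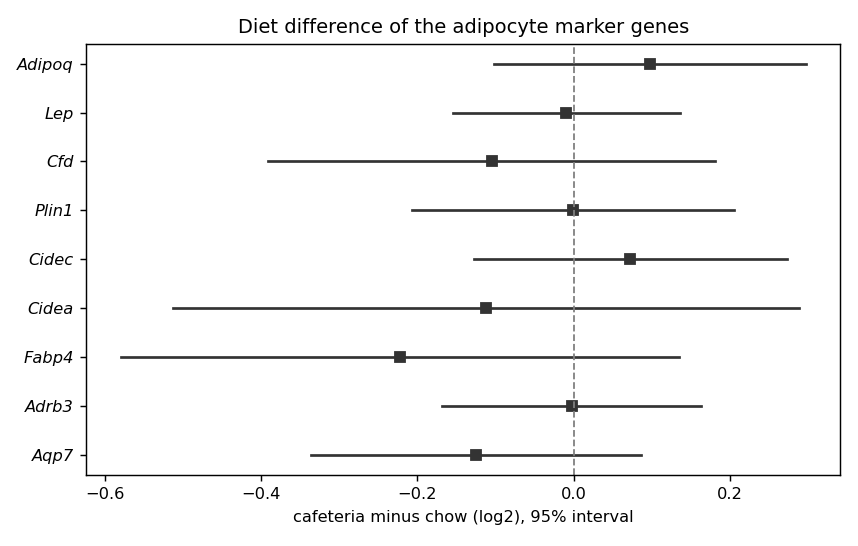
Difference between the diets for each adipocyte marker gene, cafeteria minus chow on the log2 scale, with its 95% interval from limma (n = 5 and 4 samples). The differences run from -0.22 (Fabp4) to 0.10 (Adipoq), and all 9 intervals hold 0.

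For the 8 members other than Fabp4, the farthest end of any 95% interval was 0.51 on the log2 scale, or 1.43-fold, and it belonged to Cidea. Differences above 0 were found in 2 members and differences below 0 in 7. Since dim RMA values are compressed, these intervals bound the difference of the array values and not that of the RNA.

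The spread of the members from sample to sample was set beside that of the genes of other tissues. Those genes had standard deviations over the 9 arrays between 0.0608 and 0.15, with a median of 0.10, and the members had a median of 0.13. Of the members, 6 (Adipoq, Lep, Plin1, Cidec, Adrb3 and Aqp7) stayed at or under the largest of these. The other 3 exceeded it, with standard deviations of 0.30 for Cidea, 0.28 for Fabp4 and 0.21 for Cfd.

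To see whether the members varied together from sample to sample, as markers of 1 carried-over tissue can, they were correlated with each other over the 9 arrays. Of the 36 member pairs, 22 had a Pearson r above 0 and the median r was 0.0667. By exact permutation with Benjamini-Hochberg adjustment, 0 pairs passed by Pearson's r or by Spearman's rho. At an unadjusted exact p under 0.05 there was 1 pair by Pearson's r and there were 6 by Spearman's rho. The closest pair was Lep with Cfd, with r = 0.72 (exact permutation p = 0.0486, adjusted p = 0.426) and rho = 0.73 (exact permutation p = 0.0311, adjusted p = 0.221, n = 9). Without the 2 arrays farthest from the median of Lep, cafeteria replicates 4 and 5, its r was 0.44. Lep with Fabp4 had r = 0.61 (exact permutation p = 0.0996, adjusted p = 0.426) and rho = 0.82 (exact permutation p = 0.0108, adjusted p = 0.221), and r was 0.71 without the same 2 arrays. By rho, the other pairs under that unadjusted p were Fabp4 with Aqp7 (0.78), Cfd with Aqp7 (0.77), Fabp4 with Cfd (0.72) and Cidea with Adrb3 (-0.75). Each had an exact permutation adjusted p of 0.221. The positive ones all fell among Lep, Cfd, Fabp4 and Aqp7, whose pairs had r between 0.46 and 0.72. This grouping was seen in the values and not set beforehand. The highest r of Adipoq with another member was 0.56, with Cidea.

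Pairs within the marker lists of other tissues of the pancreas are given as a description. The lymphoid and acinar lists had the highest median r, and with each array left out the acinar median lay between 0.77 and 0.85. The endothelial and macrophage lists had shares of r above 0.5 close to that of the members. The 13 measured lymphoid markers had a median r of 0.92 over their 78 pairs, which was 0.42 without chow replicate 3, and the 16 measured acinar markers had a median r of 0.80 over 120 pairs. Endothelial markers had a median r of 0.32 over 91 pairs and macrophage markers 0.25 over 78 pairs, which were 0.18 and 0.17 without cafeteria replicate 1. Ductal markers had 0.43 over 45 pairs, and 0.18 without chow replicate 1. The genes of other tissues had a median r of 0.0042 over 253 pairs. An r above 0.5 was found in 22.2% of the member pairs, in 25.3% of the endothelial pairs, in 26.9% of the macrophage pairs, in 46.7% of the ductal pairs, in 81.7% of the acinar pairs, in 80.8% of the lymphoid pairs and in 9.09% of the pairs of genes of other tissues. Leaving out each array in turn gave the member pairs a median r between 0.0031 and 0.17.

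**Figure D4:**
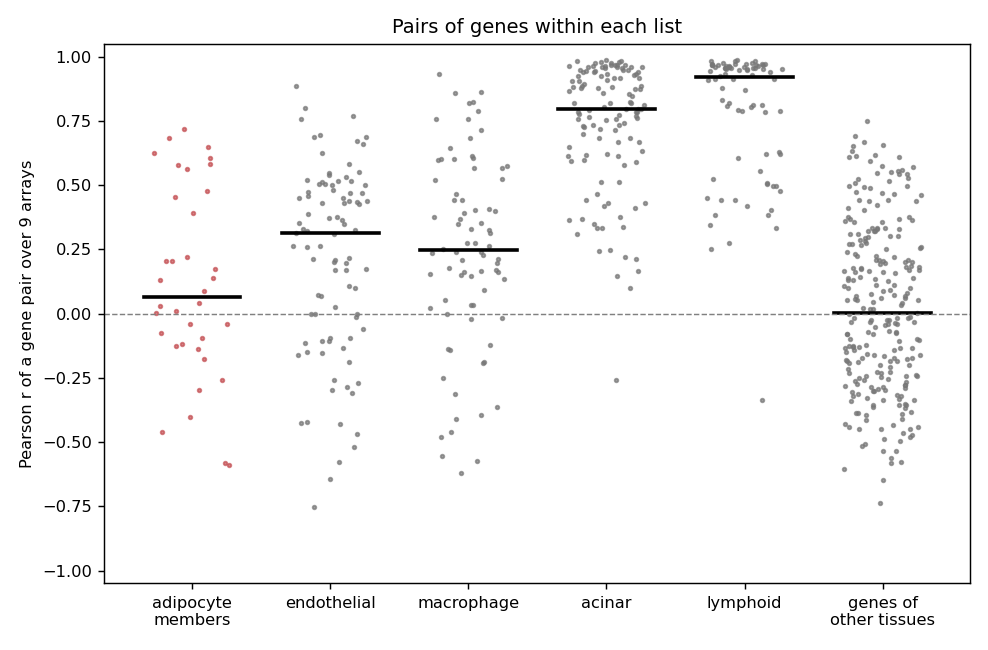
Pearson r of each pair of genes within a list over the 9 arrays, 1 point per pair, with the median of the list as a bar. The 36 pairs of adipocyte members (red) scatter about a median of 0.0667, the acinar and lymphoid pairs have medians of 0.80 and 0.92, and the pairs of genes of other tissues have a median of 0.0042.

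The mean of the members on each array, taken as the difference from the 9-array mean, gave the same view by sample. It was -0.0129, 0.0116, -0.11, -0.0807 and 0.0878 in cafeteria islets, against 0.19, 0.0097, -0.0403 and -0.0560 in chow islets. The highest array was chow replicate 1, and the groups overlapped. The group means differed by -0.0452, cafeteria minus chow, and by 0.0088 without chow replicate 1. In chow replicate 3 the lymphoid markers stood 1.42 above their 9-array mean, against 0.0728 in the next sample, while the adipocyte members stood at -0.0403 and Adipoq had its lowest value of all 9 samples. Acinar markers ranged over 1.80 between samples, from -1.07 in cafeteria replicate 5 to 0.73 in cafeteria replicate 3, whereas the members ranged over 0.29.

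**Figure D5:**
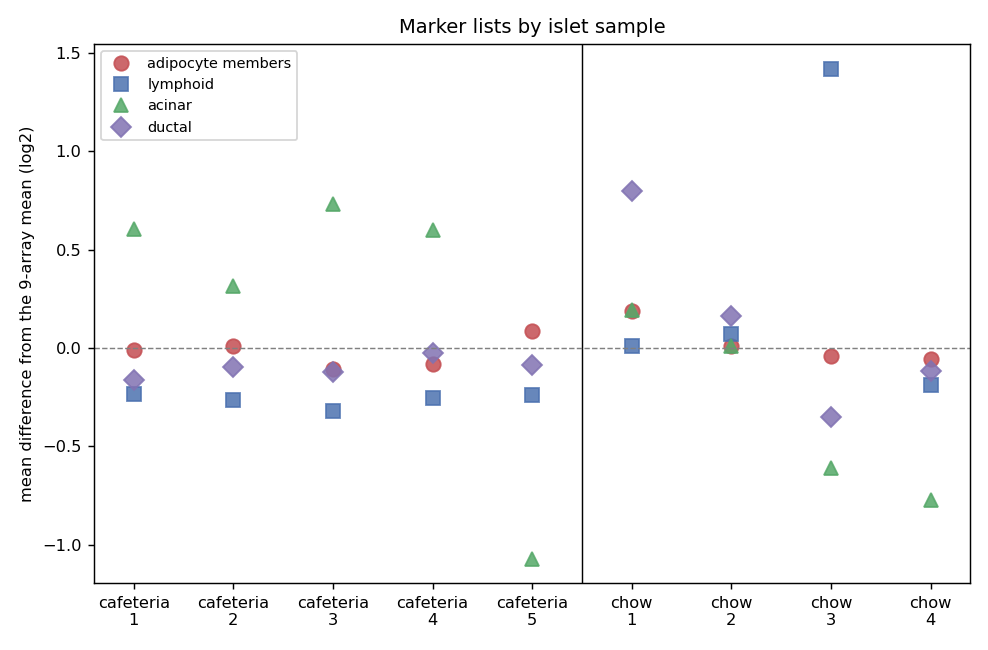
Mean difference of a marker list from its 9-array mean (log2) on each array, cafeteria samples left of the line and chow samples right of it. The adipocyte members stay between -0.11 and 0.19, lymphoid markers reach 1.42 in chow replicate 3, ductal markers reach 0.80 in chow replicate 1 and acinar markers run from -1.07 to 0.73.

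Chow replicate 1 held the highest values of Cidea, Aqp7 and Fabp4. The same array had the highest score of ductal markers, 0.80 above the 9-array mean, against 0.16 in the next sample. It also had the largest 3-prime minus 5-prime difference of the actin and Gapdh control probe sets, a measure of RNA integrity, at 1.80, where the other arrays lay between 1.21 and 1.74. Cidea and the ductal score had r = 0.95 over the 9 arrays (exact permutation p = 0.0031, adjusted p = 0.178) and rho = 0.68 (exact permutation p = 0.0503, adjusted p = 0.494). This was the smallest p of 108 relations computed between the 9 members and 12 marker lists, of which 0 passed after adjustment by either coefficient and 7 had an unadjusted exact p under 0.05 by Pearson's r and 8 by Spearman's rho. Without chow replicates 1 and 4, the arrays farthest from the median of Cidea, r was 0.78, and with each diet centred on its own mean it was 0.96. The part of RNA integrity and of ductal cells in the value of Cidea was not tested. Cidec and the score of islet endocrine genes other than those of beta cells came next, with r = -0.87 (exact permutation p = 0.0033, adjusted p = 0.178) and rho = -0.68 (exact permutation p = 0.0503, adjusted p = 0.494). Without cafeteria replicates 5 and 3 this r was -0.56. The remaining relations under that unadjusted p follow. Aqp7 with fat cell transcription factors had r = 0.72 and rho = 0.87, and Cidec with fat stroma and mesothelium 0.70 and 0.83. Other adipose secreted factors had 0.68 and 0.75 with Cidea, and -0.69 and -0.60 with Adrb3. Cidec with beta cell markers had -0.75 and -0.77. By rho alone there were Plin1 with ductal markers (0.85), Adrb3 with brown fat (0.78), and secreted factors with Fabp4 (0.73) and Adipoq (0.70).

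Fabp4 was set beside the other cell types known to make it. Of the 14 measured endothelial markers, 13 exceeded the values of the genes of other tissues on every array, and the score of the list ran from -0.16 to 0.12 in cafeteria islets and from -0.0111 to 0.0769 in chow islets. Of the 13 measured macrophage markers, 2 did so, and the score ran from -0.26 to 0.17 in cafeteria and from 0.0019 to 0.17 in chow islets. Endothelial markers had a median difference of -0.12, with 11 differences below 0 and 3 above. Macrophage markers had a median difference of -0.16, with 10 below 0 and 3 above. At an unadjusted p under 0.05 there were 2 and 3 genes, all lower under the cafeteria diet, where 3.28% of all genes were. In both lists 0 passed the adjusted threshold. The 4 genes of each list with the smallest p are named below. With single arrays left out, between 0 and 4 genes of either list had an unadjusted p under 0.05. Tie1 and Icam2, genes of the vessel wall, differed by -0.23 (SE 0.10) and -0.24 (SE 0.11), and another probe set of Icam2 had the opposite sign. Flt1, a receptor of VEGF, and Cldn5, a tight junction protein, differed by -0.16 (SE 0.09) and -0.25 (SE 0.15). Lyz2 and C1qc, lysozyme and a complement subunit made by macrophages, differed by -0.56 (SE 0.20) and -0.38 (SE 0.16), C1qb by -0.30 (SE 0.13) and Cd68, a lysosomal protein, by -0.18 (SE 0.10). The limma adjusted p was 0.846 for Cldn5 and 0.844 for the other 7 genes. Over the 9 arrays Fabp4 had r = 0.32 with the endothelial score (exact permutation p = 0.427, adjusted p = 0.775, rho = 0.32, exact permutation p = 0.41) and r = 0.28 with the macrophage score (exact permutation p = 0.472, adjusted p = 0.797, rho = 0.30, exact permutation p = 0.437). Without cafeteria replicates 3 and 4 these were -0.0953 and 0.23.

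Further genes of fat metabolism were found on both sides of the values of the genes of other tissues. Of 31 measured genes of lipid storage and lipolysis, 14 lay above the genes of other tissues on every array. These included Acly and Fasn, enzymes of fatty acid synthesis (11.79 to 12.08 and 8.51 to 8.91), and Plin2, a droplet protein of many cell types (7.84 to 8.15). Lpl, lipoprotein lipase (7.87 to 8.24), and Lipe, the hormone-sensitive lipase (6.31 to 7.03), were also among them. Another 14 genes never exceeded the genes of other tissues, among them Plin4, a perilipin of white fat (4.78 to 5.18), and Pck1 (3.78 to 4.08). So did Slc2a4, the insulin-regulated glucose transporter of fat and muscle (4.88 to 5.36). The same held for Gpam, the first enzyme of triglyceride synthesis (4.12 to 4.50), and Lgals12, a droplet lectin of fat cells (3.66 to 4.17). These 10 genes, except Lgals12, were named after their values were seen. Plin4 and Slc2a4 passed 5.05 in some samples, the highest value of the genes of other tissues apart from Wap and Pde6g. Pnpla3, Dgat2, Gpd1, G0s2 and Angptl4 did so too, and Trarg1 lay above it on every array (5.17 to 5.53). These further genes of the 14 were also named after their values were seen. For all of them, the place among the 14 rests on Wap or Pde6g.

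None of these 31 genes passed the adjusted threshold or an unadjusted p under 0.05 by limma, and the median difference was -0.0369. The 4 with the smallest p were Lgals12 (0.19, SE 0.09), Agpat2, an enzyme of triglyceride synthesis (-0.22, SE 0.13), Cav1, the caveolae protein of fat and endothelium (-0.20, SE 0.14), and Plin5 (-0.09, SE 0.07). Lgals12 read 3.96, 3.77, 3.98, 4.17 and 3.92 in cafeteria islets, against 3.66, 3.85, 3.81 and 3.76 in chow islets, with cafeteria replicate 2 inside the range of the chow group. Its limma adjusted p was 0.844.

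Among the 12 transcription factors of fat cell formation, Pparg, the master regulator, lay between 3.75 and 4.21 and Ebf2, a factor of brown fat precursors, between 3.36 and 3.56. Mlxipl and Srebf1, which drive lipid synthesis in many tissues, lay between 7.93 and 8.58 and between 7.48 and 7.77. These 4 genes were named after their values were seen. By limma 0 of the 12 passed the adjusted threshold, and 1 was at an unadjusted p under 0.05, in the lower direction that held 3.28% of all genes. Cebpb, an early factor of fat cell formation that is also induced by stress in other cells, differed by -0.37 (SE 0.14, unadjusted p = 0.0246, adjusted p = 0.844). The other 3 with the smallest p were Tcf7l1 (-0.10, SE 0.06), Ebf1 (-0.22, SE 0.19, with 1 other probe set of opposite sign) and Nr1h3 (0.10, SE 0.11).

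Of 11 measured brown fat genes, 9 never exceeded the genes of other tissues, including Ucp1, the uncoupling protein of brown fat (3.60 to 3.96), which was named after its values were seen. Of these 9, Cpt1b (4.84 to 5.53) and Prdm16 (up to 5.055) passed the highest value apart from Wap and Pde6g, 5.05. Prdm16 was also named after its values were seen. By limma 0 of the 11 passed the adjusted threshold, and 1 had an unadjusted p under 0.05 and was higher under the cafeteria diet, where 3.42% of all genes were. Ppargc1a, a coactivator of mitochondrial biogenesis that islets also use, read 5.37, 5.53, 5.92, 6.17 and 6.13 in cafeteria islets, against 5.01, 5.17, 5.44 and 5.43 in chow islets. Cafeteria replicates 2, 3, 4 and 5 lay above every chow sample and replicate 1 lay among them, so the groups overlapped. The difference was 0.56 (SE 0.18, unadjusted p = 0.00872, adjusted p = 0.844), and all 3 of its probe sets had the same sign. The brown fat genes Cpt1b (-0.18, SE 0.13), Elovl3 (0.10, SE 0.07) and Cox8b (-0.10, SE 0.08) had the next smallest p.

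Of 8 measured genes of other factors secreted by fat, 3 lay above the genes of other tissues on every array, among them Sparcl1 (9.24 to 10.01). Another 4 never exceeded them, but of these Sfrp5 (4.35 to 5.69) and Apln (4.89 to 5.22) passed 5.05, the highest value apart from Wap and Pde6g. By limma 0 of the 8 were at an adjusted p under 0.05 or an unadjusted p under 0.05. Sfrp5, an inhibitor of Wnt signalling, had the smallest p and differed by -0.45 (SE 0.21, limma adjusted p = 0.844), followed by Hp, haptoglobin (0.14, SE 0.08), Sparcl1 (0.15, SE 0.16) and Apln, apelin (-0.08, SE 0.08, with 1 other probe set of opposite sign, and -0.0134 with the mean over both). Of 10 measured genes of fat stroma and of the mesothelium that covers fat, 3 lay above the genes of other tissues on every array. They were Msln (12.52 to 12.89), Dcn (7.54 to 8.15) and Lum (6.82 to 8.14), named after their values were seen. Another 3 never exceeded the genes of other tissues, but of these Dpp4, also named after its values were seen, reached 5.08. Which cells held these messages was not tested. By limma 0 of the 10 passed either threshold. The 4 with the smallest p were Wt1 (0.12, SE 0.06), Pi16 (-0.18, SE 0.09), Lrrn4 (0.32, SE 0.19, with 2 other probe sets of opposite sign) and Mfap5 (0.29, SE 0.18). The genes whose values ran most like those of Adipoq across the 9 arrays, searched among 13974 genes, were Snf8 (r = 0.94), Hoxc4 (0.93), Faap20 (0.91), Dao (0.90) and Retsat (0.90), and those most like Fabp4 were Mrpl28 (0.96), Elp6 (0.96), Elob (0.94), Bcas2 (0.94) and Snrpb2 (0.94). Without cafeteria replicates 3 and 4, the arrays farthest from the median of Fabp4, r was 0.74 for Mrpl28 and Elp6 and 0.70 for Elob. It was then 0.93 for Bcas2 and 0.91 for Snrpb2. Without chow replicates 3 and 2, the r with Adipoq ran from 0.75 (Retsat) to 0.96 (Faap20). The r over all 9 arrays are the largest of a long list and are given as a description. For the whole list, 5 genes exceeded an r of 0.9 with Adipoq and 27 with Fabp4.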

How the data were processed

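RNA of 9 islet samples was read on 1 array each. The deposited table holds log2 values per probe set, made with RMA by the authors. The submitters' processing notes list R 2.7.0 and affy 2.0.1 as tools, with no role given. RMA subtracts background, quantile-normalizes the arrays and condenses each probe set to a log2 value, which compresses small differences of dim probe sets and removes a shift shared by most genes. The number of arrays limits the precision.

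Of 31099 probe sets, 57 controls were left out. Of the 31042 tested, the platform annotation gave 20826 a single gene (14217 genes), gave 436 several genes, and named none for 9780. The probe set with the highest mean stood for a gene. Groups were compared by limma's moderated test (limma 3.58.1 under R 4.3.3, lmFit and eBayes without a trend), two-sided, Benjamini-Hochberg over all probe sets, threshold 0.05. Correlations and differences of single values used exact permutation tests (Python 3.11.15, numpy 2.4.6). The fit was tested on simulated data, and the exact tests on small sets of values with known answers. Genes named are the members, the islet check (Ins1, Ins2, Gcg and Sst), the 4 with the smallest p of each list described gene by gene (the other lists are given by score or range), the 5 most like Adipoq and Fabp4, and those said to be named after their values were seen. Members and lists were chosen with earlier results of these data known, and the use of the genes of other tissues as a limit was set after their values were seen. Alternatives were 2 further normalizations, the brighter probe sets, a variance trend, array weights, RNA integrity as a covariate, the mean over probe sets, and leaving out each array. Leaving arrays out of the list medians, list counts and pair medians was added after the values were seen.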

Additional observations from a re-analysis of the deposited data

Results flagged for a closer look

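A sample far from the others of its diet group was looked for in 46 groups, 18 of the members and 28 of marker list scores. Chance flags about 1 in 20 groups. No group of a member's values was flagged, and 6 groups of list scores were. Lymphoid markers stood at 1.42 in chow replicate 3, with the next chow sample at 0.0728. Acinar markers stood at -1.07 in cafeteria replicate 5, with the next cafeteria sample at 0.31. The other 4 were small in size. Other adipose secreted factors stood at 0.11 in cafeteria replicate 1, against -0.0093 in the next sample, and beta cell markers stood at 0.0686 in the same array, against -0.0264. Endothelial markers stood at -0.0111 in chow replicate 2, against 0.0695 in the next sample. Genes of tissues outside pancreas and fat stood at -0.0274 in cafeteria replicate 5, against 0.0055.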

How the results depend on the processing

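Under all 16 other settings of the limma fit, 0 members and 0 genes passed the adjusted threshold and 0 members had an unadjusted p under 0.05. Of all genes, between 4.39% (without chow replicate 3) and 13.5% (with RNA integrity as a covariate) had one, and the smallest adjusted p was 0.324. No member pair passed under any setting, deviations from the diet means included. The mean of the members differed by -0.0452 as reported and by -0.0722 to 0.0088 with single arrays left out, where only leaving out chow replicate 1 turned its sign. Among the brighter probe sets only Fabp4 remained, at -0.22. No direction holds for 5 members. The difference of Plin1 turned to 0.0083 with median centring, 0.0914 with array weights, 0.0051 with RNA integrity as a covariate and 0.0160 with the mean over its probe sets, and ran from -0.0596 to 0.0571 with single arrays left out. That of Adrb3 turned to 0.0066 with median centring and ran from -0.036 to 0.0356. That of Cidea turned to 0.0009 with array weights and ran from -0.22 to 0.12. With single arrays left out Lep ran from -0.0412 to 0.0121 and Cfd from -0.17 to 0.0074. Adipoq (0.0513 to 0.17), Cidec (0.0134 to 0.12), Fabp4 (-0.30 to -0.0841) and Aqp7 (-0.17 to -0.0446) kept their sign with each array left out. The cause of these changes was not tested. The 32 other genes given with a difference kept their sign under the settings in which they were fitted, which for 16 of them leaves out the brighter probe sets. By the exact permutation test Lgals12, Tcf7l1 and Wt1 had an unadjusted p under 0.05 that limma did not give, and Ppargc1a, Tie1, Icam2, C1qb and C1qc lost theirs. No paired analysis was possible because the labels give no numbers that tie a cafeteria sample to a chow sample. Dim signals limit the reading of the 8 members other than Fabp4.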

Other observations

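Lymphoid markers, which were set beside the fat cell genes above, were the list whose score lay farthest from its 9-array mean in any sample. All 13 measured markers had differences below 0, cafeteria minus chow, with a median of -0.56, and 0 passed the adjusted threshold by limma, while 4 were at an unadjusted p under 0.05, in the lower direction that held 3.28% of all genes. Without chow replicate 3 the median was -0.20, with all 13 still below 0 and 6 at such a p, and with single arrays left out the count ran from 1 to 10. Coro1a, an actin-binding protein of leukocytes, read 4.84, 4.61, 4.66, 4.97 and 4.87 in cafeteria islets, against 5.72, 5.68, 8.09 and 5.31 in chow islets. Cafeteria and chow samples did not overlap, as in 2.17% of all genes, and chow replicate 3 stood 2.37 above the next chow sample. The difference was -1.41 (SE 0.46, limma adjusted p = 0.844), and -0.78 without chow replicate 3. The next 3 by p were Cr2, a complement receptor of B cells (-0.44, SE 0.19), Cd79b, a subunit of the B cell receptor (-0.67, SE 0.29), and Ptprc, the leukocyte antigen CD45 (-1.06, SE 0.48), each with limma adjusted p = 0.844. Without chow replicate 3 these were -0.20, -0.28 and -0.42. The diet groups did not overlap in Cr2, Cd79b and Lck either, and Lck was named after its values were seen.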
